A study of Homo sapiens with 17 samples.

Results

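The HOX cluster genes of HEK-293T cells were described with and without a low dose of emetine. Members were all genes of the 1 h table whose symbol is HOXA, HOXB, HOXC or HOXD followed by a number, which gave 39 genes of 19222. HEK-293T is a human embryonic kidney line, and all cells were wild type. At 1 h the compared cells received 500 µM s4U alone (untreated, 3 libraries) or 500 µM s4U with 1.8 µM emetine (3 libraries), and 1 untreated and 1 emetine library came from cells without s4U. At 2 h the groups were untreated cells, cells with 1.8 µM emetine and cells with 240 µM emetine, 3 libraries each, with 250 µM s4U. No label says whether replicates came from separate cultures, so p-values measure the spread between these libraries, which may be technical.

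HOX genes encode homeodomain transcription factors that give cells along the body axis their positional identity. They lie in 4 clusters on separate chromosomes, and genes with the same number in different clusters are paralogs that descend from 1 ancestral gene. Low-numbered genes pattern anterior regions and high-numbered genes posterior ones, limbs and the urogenital tract. HOX proteins bind DNA together with TALE cofactors of the PBX and MEIS families, Polycomb and Trithorax complexes keep the clusters silent or active, and retinoic acid induces the low-numbered genes in embryos. Emetine blocks the movement of ribosomes along mRNA. In TimeLapse-seq (TL-seq), RNA made during labeling takes up s4U, which is read as T-to-C conversions, so the share of reads from new RNA (fraction new) can be estimated for each gene.

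The 8 libraries of the 1 h experiment held 22246279 to 40018063 reads given to a gene. Emetine replicate 3 stood apart: its log2 levels deviated from the mean of its group with an SD of 0.263 over genes. The SD was 0.0905 to 0.158 in the other 5 libraries. Its deviations ran with transcript length at a Spearman's rho of 0.70 across genes, against -0.60 and -0.59 in emetine replicates 1 and 2. Deviations from a shared group mean offset each other, so the opposite trends in emetine replicates 1 and 2 are not independent of it. Of the kidney epithelial markers, SIX2, SALL1 and KRT18 were found at 29.2 to 64.2 CPM (reads scaled to a common library size) in every s4U library, whereas LHX1, CDH1, EPCAM and KRT8 ranged from 0.605 to 7.01 CPM, PAX2 reached at most 2.44 CPM and PAX8 at most 0.140 CPM. The neuronal genes NEFL, NEFM and INA, known from this line, were at 16.1 CPM or more, the fibroblast genes COL1A1 and COL3A1 reached 27.8 and 3.40 CPM, the liver gene ALB and the lung gene SFTPC reached at most 0.356 and 0.0250 CPM, and the blood genes PTPRC, CD3E and HBB were not listed.

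Nearly the whole HOX complement was detected in these cells, at very unequal levels. Of the 39 members, 36 had more than 100 reads in total over the 6 s4U libraries. HOXB1 and HOXC12 had 1 read in 1 library (emetine replicate 2), and HOXD12 had at most 3 reads in any library. A count of 0 allows up to 3 reads, or 0.0750 to 0.135 CPM depending on the library. HOX reads made up 0.1004% to 0.108% of gene reads in the untreated libraries, and HOXB9 and HOXD13 alone held 30.0% of them. In such bulk libraries fewer cells with a transcript and less of it per cell cannot be told apart.

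Per kb of exon, HOXD13, HOXB9 and HOXA5 were the highest members in untreated cells. HOXD13, which acts in the development of digits and the urogenital tract, was highest at 67.1 ± 2.73 CPM per kb (SD, n = 3). HOXB9, a posterior gene of the trunk, followed at 63.2 ± 0.813 CPM per kb. HOXA5, known for its roles in the lung and the cervical to thoracic skeleton, was at 40.0 ± 3.87 CPM per kb. The libraries of each of these 3 lay above those of the next member without overlap. HOXB6 (23.5 ± 2.03), HOXD11 (23.2 ± 3.16) and HOXA10 (22.9 ± 0.370 CPM per kb) could not be ordered beyond their spread.

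Each cluster had its own profile. In the HOXA cluster (chromosome 7), the 3 highest members per kb, by reads given to 1 gene, were HOXA5, HOXA10 and HOXA11 (16.3 ± 0.727). HOXA6 (1.33 ± 0.365) and HOXA2, a hindbrain gene (1.18 ± 0.0294 CPM per kb), were at the low end and overlapped. In the HOXB cluster (chromosome 17), HOXB9 and HOXB6 led, followed by HOXB7 at 11.5 ± 0.464 CPM per kb. In the HOXC cluster (chromosome 12), HOXC9 (16.7 ± 1.41), HOXC10 (16.4 ± 0.810) and HOXC13 (13.3 ± 1.97 CPM per kb) led, and the libraries of HOXC10 overlapped those of both others. In the HOXD cluster (chromosome 2), HOXD13, HOXD11 and HOXD10 (18.8 ± 2.28) led, while HOXD1 (0.643 ± 0.255) and HOXD3 (0.630 ± 0.192 CPM per kb) were the lowest of the 36. Per kb of the longest coding transcript, the first 3 places were the same and HOXA10 was the fourth, at 33.5 CPM per kb.

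**Figure D1:**
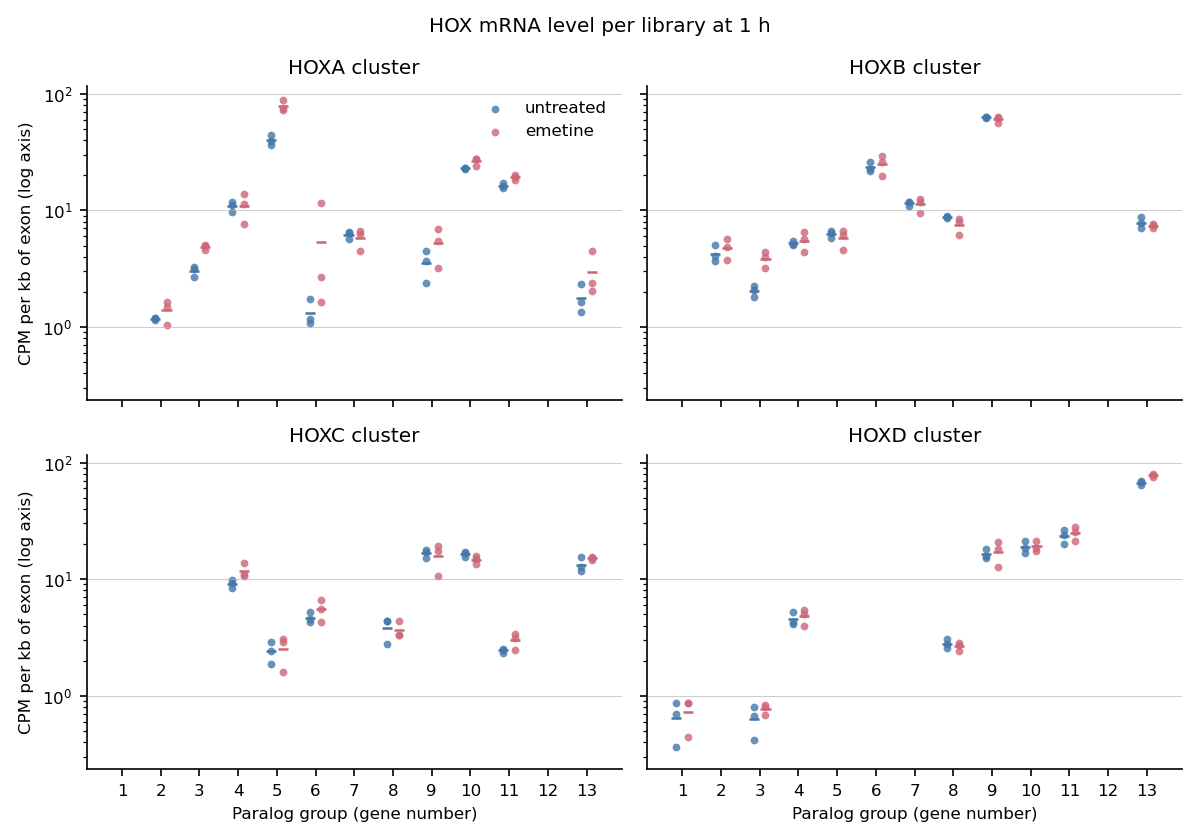
Level of HOX members with more than 100 reads, in CPM per kb of exon on a log axis, by cluster and paralog group; each point is 1 library and each line the mean of 3. HOXD13 and HOXB9 were highest. The 3 emetine points lay above the 3 untreated points for HOXA3, HOXA5, HOXB3, HOXA10, HOXA11, HOXC4 and HOXD13. These are 19.4% of the 36 members, near the 20.5% of all genes.

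Most reads over HOXA9 were left out of its level by the counting. HOXA9 is an abdominal gene known for its part in leukemia. Reads that fit both it and the readthrough gene HOXA10-HOXA9 were marked as ambiguous and left out of every count above. On the annotation used here, only 15.9% of the exon bases of HOXA9 are also exonic in another gene on its strand. The gene model behind the deposited counts was not compared with this annotation, and may differ from it. The ambiguous reads numbered 26875 over the 8 libraries, against 3280 given to HOXA9. How many of them came from either gene was not determined. All of them were added to HOXA9 as an upper bound, a choice made after seeing the data. The level of HOXA9 in untreated cells was then 103 ± 8.62 CPM in place of 10.7 ± 3.19 CPM (SD, n = 3). Per kb of exon that was 34.1 ± 2.84 CPM, which overlapped HOXA5 and lay above HOXB6, HOXD11 and HOXA10 in every library, so the order of levels after HOXA5 depends on these reads. Only 960 reads were shared between HOXA10 and the readthrough gene, and 154 between HOXC4, HOXC5 and HOXC6. On the annotation, 67.3% of the exon bases of HOXC5 are also exonic in another gene on the same strand, as are 31.3% for HOXA4. The values of both are therefore uncertain. So are those of HOXD10 (18.2%) and HOXD11 (21.4%), which share exon bases with each other. The same holds for HOXC4 (17.5%), HOXB6 (16.6%) and HOXC6 (16.1%). The reads marked as shared did not involve HOXA4, HOXB6, HOXD10 or HOXD11.

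**Figure D2:**
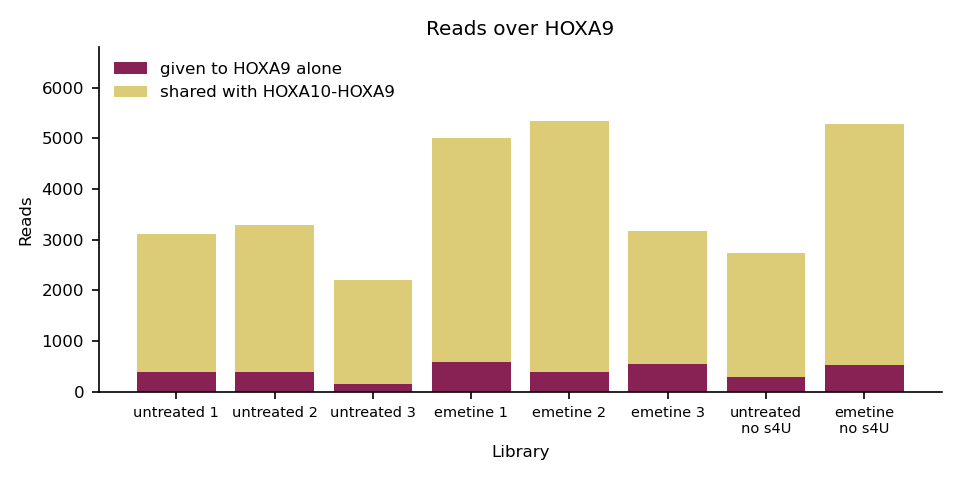
Reads over HOXA9 in the 8 libraries of the 1 h experiment, as bars that stack the reads given to HOXA9 alone and those shared with the readthrough gene HOXA10-HOXA9. The shared reads, 2041 to 4944 per library, exceeded HOXA9's own 155 to 582 in every library.

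HOX mRNAs were short-lived in untreated cells. HOX reads carried conversions at 2.68% to 3.38% of their T positions in the untreated s4U libraries, against 0.802% to 1.06% in the reads of all genes. Without s4U the HOX values were 0.0574% (untreated) and 0.0523% (emetine). Reads with 2 or more conversions made up 21.6% to 28.9% of HOX reads in untreated s4U libraries and 6.32% to 8.66% of the reads of all genes. Without s4U the reads of all genes had 0.0504% (untreated) and 0.0521% (emetine) of T positions converted, so a far smaller difference in the same direction was also there.

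Fraction new was estimated for the 31 members with at least 100 reads in each of the 6 s4U libraries. HOXA2, HOXA6, HOXC5, HOXD1 and HOXD3 had more than 100 reads in total but not in each library. The median fraction new of the members was 28.3%, 35.5% and 37.8% in untreated replicates 1, 2 and 3, and that of 10763 genes was 9.26%, 12.3% and 14.7%. As half-lives these are medians of 2.08, 1.58 and 1.46 h for HOX members and 7.13, 5.26 and 4.36 h for all genes. Untreated replicate 1 was lowest in fraction new for both. In each of the 3 libraries, 29 of the 31 members (93.5%) had a half-life under that library's median gene, as did 43.9% of all genes. HOXC10 and HOXD10 were the exceptions.

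The shortest half-lives belonged to HOXA3, HOXC8 and HOXA5. HOXA3, which patterns the pharyngeal arches, had a fraction new of 77.2%, 80.9% and 90.4% in the 3 untreated libraries and a half-life of 0.395 ± 0.0887 h (SD, n = 3). HOXC8, a gene of the thoracic skeleton and motor neurons, had 64.2%, 67.0% and 80.2% and a half-life of 0.576 ± 0.131 h. HOXA5 had 57.8%, 68.8% and 73.2% and a half-life of 0.642 ± 0.144 h. HOXB3, the paralog of HOXA3, followed at 0.656 ± 0.237 h, and HOXB2, another hindbrain gene, at 0.679 ± 0.0885 h. Pooled over libraries, these 5 overlapped between neighbours, and HOXA3 was at 0.468 h or less in every library. Within each library HOXA3 was below HOXC8, at 0.468, 0.419 and 0.296 h against 0.674, 0.625 and 0.427 h.

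The longest half-lives belonged to HOXD10, HOXC10 and HOXB9. HOXD10, a gene of the lumbar cord and hindlimb, had a fraction new of 8.19%, 13.3% and 12.2% and a half-life of 6.10 ± 1.76 h. Its paralog HOXC10 had 10.2%, 15.2% and 13.1% and a half-life of 5.20 ± 1.16 h, and HOXB9 had a half-life of 3.10 ± 0.725 h. HOXC10 and HOXD10 lay above every other member in each library. Pooled over libraries, HOXB9 overlapped HOXB13 (2.82 ± 0.549 h) and HOXD4 (2.75 ± 1.08 h). Within each library HOXB9 was above HOXB13, though in untreated replicate 2 only at 3.12 against 3.06 h. In untreated replicate 1 it was below HOXD4 (3.82 against 4.00 h). The third paralog, HOXA10, was at 2.32 ± 0.549 h, with no library as high as the lowest of HOXC10 or HOXD10. Across the 31 members, half-life ran with paralog group at a Spearman's rho of 0.42 and with CPM also at 0.42, as a description over genes that share libraries and, in part, ancestry. By cluster, the median half-life was 1.08 h for 9 HOXA members, 1.75 h for 9 HOXB members, 1.94 h for 7 HOXC members and 2.04 h for 6 HOXD members.

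**Figure D3:**
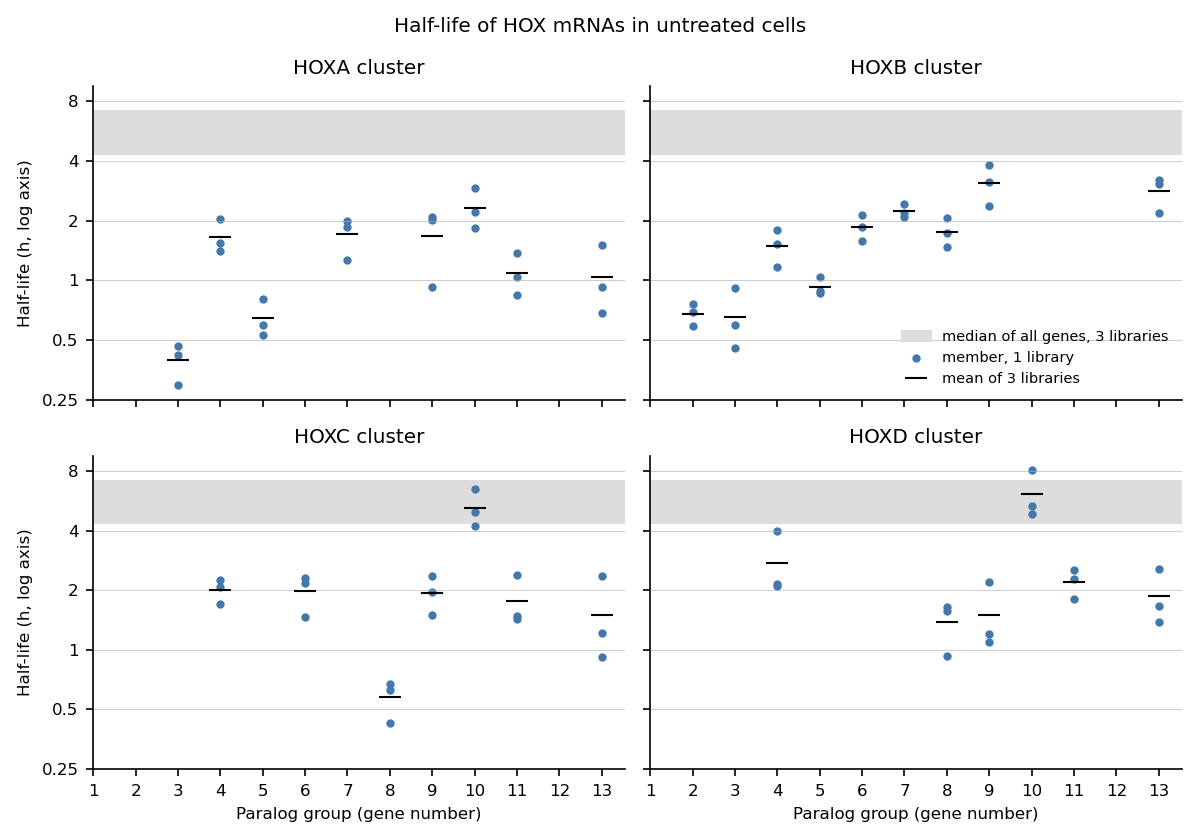
Half-life in untreated cells of HOX members with at least 100 reads in each library, in h on a log axis, by cluster and paralog group; each point is 1 library, each dash the mean of 3, and the gray band spans the medians of all genes in the 3 libraries (4.36 to 7.13 h). HOXC10 and HOXD10 reach the band, and the other members shown lie below it.

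The first comparison asked whether emetine for 1 h changed the level of HOX mRNAs. HOXA5, HOXB3 and HOXA3 rose, and no member fell. These are 3 of 36 members (8.33%), where 2.64% of all 13776 genes tested were called higher with emetine (edgeR's quasi-likelihood test, Benjamini-Hochberg adjusted p under 0.05). For lower levels the members gave 0 of 36 and all genes 0.0436%; 0 members were lower at an unadjusted p under 0.05 and 8 were higher, and DESeq2 called the same 3 members higher and 0 lower. The median log2 fold change was 0.08 over the 36 members, of which 25 were above 0, and 0.03 over all genes.

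HOXA5 changed most among the members called. It stood at 67.2, 63.1 and 76.2 CPM in the untreated libraries and at 151, 130.2 and 125 CPM in the emetine libraries, a log2 fold change of 0.96 (SE 0.11, adjusted p = 0.00757 by edgeR). Every emetine library was above every untreated one. In the pair of libraries without s4U, which the test did not use, HOXA5 was at 92.5 CPM untreated and 178 CPM with emetine, a ratio of 1.92 with a 95% exact interval of 1.83 to 2.02 that covers counting error only.

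HOXB3, a hindbrain gene, had 16.5, 15.5 and 13.5 CPM in untreated cells and 29.4, 23.7 and 32.4 CPM with emetine, a log2 fold change of 0.89 (SE 0.14, adjusted p = 0.0162 by edgeR). The groups were again apart. The pair without s4U had 21.5 CPM untreated and 33.2 CPM with emetine, a ratio of 1.55 (95% exact interval 1.39 to 1.72). The fold with s4U, 1.85, lay above that interval. HOXA3 had 14.1, 13.6 and 11.5 CPM in untreated cells and 21.5, 19.8 and 21.7 CPM with emetine, a log2 fold change of 0.67 (SE 0.12, adjusted p = 0.0256 by edgeR). It was also higher in every emetine library. Without s4U, HOXA3 had 19.1 CPM untreated and 22.8 CPM with emetine, a ratio of 1.19 (95% exact interval 1.06 to 1.34). The fold of HOXA3 with s4U, 1.59, lay above that interval. Both values without s4U, from 1 library each, were above those with s4U in the same treatment for HOXA3, HOXB3 and HOXA5.

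The 3 calls depended on which library was left out. With untreated replicate 1 or 2 left out, none of the 3 passed the test, and over all genes only 4 and 5 were then called in either direction. Without untreated replicate 3 or emetine replicate 1 only HOXA5 did, and without emetine replicate 2 or 3 all of them did. The change itself moved little, from 0.87 to 1.05 for HOXA5, 0.79 to 1.00 for HOXB3 and 0.59 to 0.73 for HOXA3 on the log2 scale. Over all alternatives, fitted with edgeR or DESeq2, the adjusted p of HOXA5, HOXB3 and HOXA3 ran from 2.07e-10 to 0.0893, from 3.10e-06 to 0.116 and from 8.72e-05 to 0.150. With spike-in scaling, which raised the median of all genes by 0.68 on the log2 scale, none of the 3 was called, although relative to that median they stood at 0.98, 0.89 and 0.64. The spike-in share of reads was uneven within groups and overlapped between them. It was 0.667%, 0.480% and 0.728% in untreated and 0.304%, 0.666% and 0.408% in emetine replicates 1, 2 and 3.

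HOXA3 and HOXB3 differ from most members in structure. In GENCODE 44 on GRCh38, HOXA3 (chr7:27106184-27152583, minus strand) spans HOXA4, HOXA5 and HOXA6, and HOXB3 (chr17:48548870-48604912, minus strand) spans HOXB4 and HOXB5. Their transcripts have 6 and 5 exons, while 28 of the 31 members with a fraction new (90.3%) have 2 exons, as do 4.11% of all genes tested. HOXA5 (chr7:27141052-27143681, minus strand) is such a gene, and none of its exon bases are exonic in another gene on its strand, against 9.29% for HOXA3 and 6.42% for HOXB3. Of the genes within HOXA3, HOXA5 had a log2 fold change of 0.96, HOXA6 of 1.97 (SE 0.67, not called) and HOXA4 of -0.00 (SE 0.20, not called). HOXB4 and HOXB5, within HOXB3, had 0.07 (SE 0.16) and -0.13 (SE 0.16), and neither was called. Spanning other members is not particular to HOXA3 and HOXB3: HOXB7, HOXC4, HOXC6 and HOXD3 do so too. Their log2 fold changes were -0.04 (SE 0.13), 0.35 (SE 0.13), 0.22 (SE 0.17) and 0.29 (SE 0.26), and none was called with all libraries. Antisense genes such as HOXA11-AS are annotated in the clusters, and the strand setting of the counting is not given in the sources used here.

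Reads were then split into a labeled pool (CPM times fraction new) and an unlabeled pool, which holds RNA made before the hour began. The unlabeled pool rose for HOXA5, HOXB3, HOXA3, HOXA13 and HOXA11, which are 5 of 31 members (16.1%), where 7.76% of 10763 genes were called higher (limma on log2(CPM + 0.5), Benjamini-Hochberg). None of the members was called lower, also not at an unadjusted p under 0.05, and 0.0836% of all genes were. The labeled pool was called for no member in either direction, with 3 members at an unadjusted p under 0.05 (limma), against 0.26% of all genes called higher and 0.576% called lower. The median change over the members was 0.21 for unlabeled and -0.15 for labeled reads on the log2 scale, beside 0.06 and -0.13 over all genes.

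For HOXA5, unlabeled reads stood at 28.4, 19.7 and 20.4 CPM in untreated and 79.6, 64.2 and 59.5 CPM in emetine libraries, a log2 change of 1.56 (SE 0.16, adjusted p = 0.00122 by limma). The labeled reads of HOXA5 were at 38.9, 43.4 and 55.7 CPM and at 71.8, 65.9 and 65.5 CPM, a log2 change of 0.57 (SE 0.21, adjusted p = 0.198 by limma). The groups did not overlap in either pool, and the test was passed only by the unlabeled one.

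For HOXB3, unlabeled reads went from 7.78, 4.85 and 2.95 CPM to 16.5, 12.1 and 18.2 CPM, a log2 change of 1.57 (SE 0.29, adjusted p = 0.0142 by limma). For HOXA3 they went from 3.201, 2.60 and 1.11 CPM to 6.16, 6.73 and 6.45 CPM, a log2 change of 1.39 (SE 0.28, adjusted p = 0.0194 by limma). The labeled reads of HOXB3 and HOXA3 changed by 0.35 (SE 0.24) and 0.42 (SE 0.24) and were not called. Because 0.5 CPM was added, these values understate the change of a pool this small.

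HOXA11 and HOXA13, genes of the limb and the urogenital tract, rose in the unlabeled pool but were not called in level. For HOXA11, unlabeled reads were at 25.9, 23.4 and 18.4 CPM in untreated and 36.8, 35.5 and 31.6 CPM in emetine libraries, a log2 change of 0.62 (SE 0.14, adjusted p = 0.0325 by limma), and its labeled reads changed by -0.29 (SE 0.23). For HOXA13 they were at 4.33, 3.96 and 4.30 CPM and at 6.85, 7.77 and 12.6 CPM, a log2 change of 0.98 (SE 0.22, adjusted p = 0.0261 by limma). The highest HOXA13 value came from emetine replicate 3, and without that library the change was 0.73 (adjusted p = 0.00732 by limma). With untreated replicate 2 left out only HOXA5 was called in the unlabeled pool, and with untreated replicate 3 left out only HOXA5 and HOXA3 were. HOXA13 was also lost without untreated replicate 1, and HOXA11 without emetine replicate 1 or 2.

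**Figure D4:**
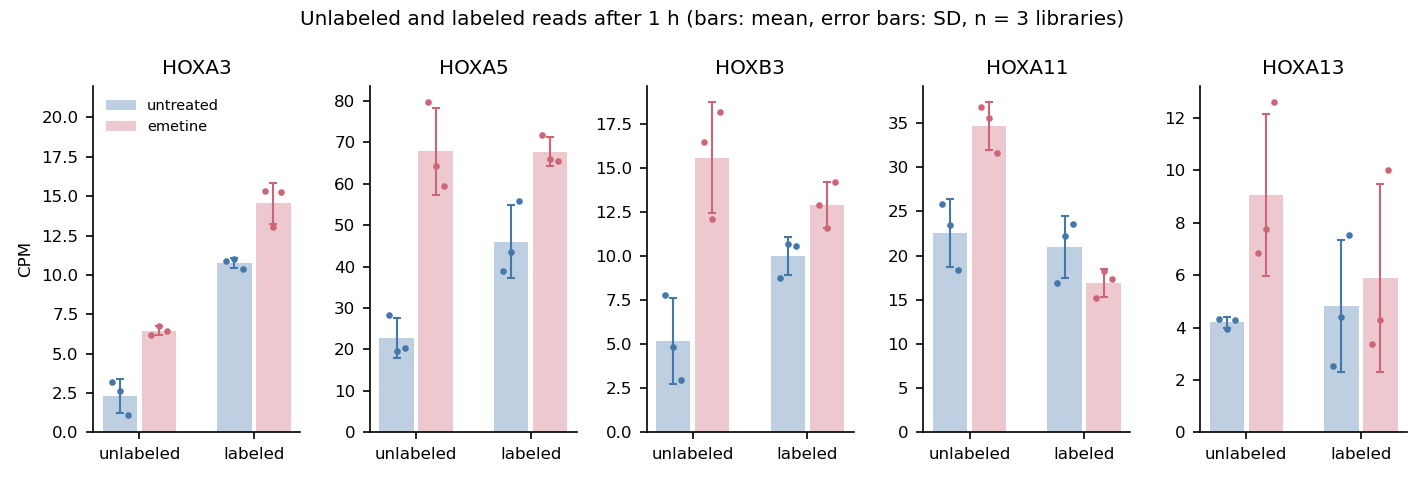
Unlabeled and labeled reads of the 5 members whose unlabeled pool was called higher, in CPM; bars are means of 3 libraries, error bars SD and points single libraries. In all 5 panels the unlabeled emetine points lie above the unlabeled untreated points, and the labeled points overlap between groups for HOXA11 and HOXA13.

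The second comparison asked whether emetine changed the fraction new. HOXB3 was the only member called: its fraction new fell from 53.0%, 68.8% and 78.2% in the untreated libraries to 43.9%, 48.96% and 43.9% in the emetine libraries, a change in logit of -0.91 (SE 0.25, adjusted p = 0.0191 by limma). That is 1 of 31 members (3.23%), beside 4.83% of all genes called lower, so the share of members was no higher than the background. None was called higher, also not at an unadjusted p under 0.05, with 0.214% of all genes. The call was lost when either untreated replicate 2 or 3 or any emetine replicate was left out, with changes of -0.63 to -0.97 and adjusted p-values of 0.0877 to 0.251 by limma. Without untreated replicate 1, which had the lowest fraction new, 11 members were called lower, and 2565 of all genes were then called in either direction.

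HOXA3, HOXC8, HOXA5 and HOXA11 had the next largest changes and did not pass. HOXA3 was at 71.3%, 65.9% and 70.3% with emetine, a change in logit of -0.82 (SE 0.27, adjusted p = 0.0601 by limma). HOXC8 was at 52.7%, 61.9% and 50.2%, a change of -0.70 (SE 0.26, adjusted p = 0.0996 by limma), and its level had a log2 fold change of -0.07 (SE 0.21). HOXA5 was at 47.4%, 50.6% and 52.4%, a change of -0.70 (SE 0.25, adjusted p = 0.0841 by limma). HOXA11 changed by -0.64 (SE 0.23, adjusted p = 0.0838 by limma).

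All 3 emetine libraries lay below all 3 untreated ones in fraction new for 10 of the 31 members (32.3%), against 16.8% of all genes. In level the emetine libraries were all above for 7 of 36 members (19.4%), near the 20.5% of all genes, and all below for 1 member, HOXB8 (2.78%), against 14% of all genes. The median change in logit was -0.23 over the members, with 26 of 31 below 0, and -0.16 over all genes.

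**Figure D5:**
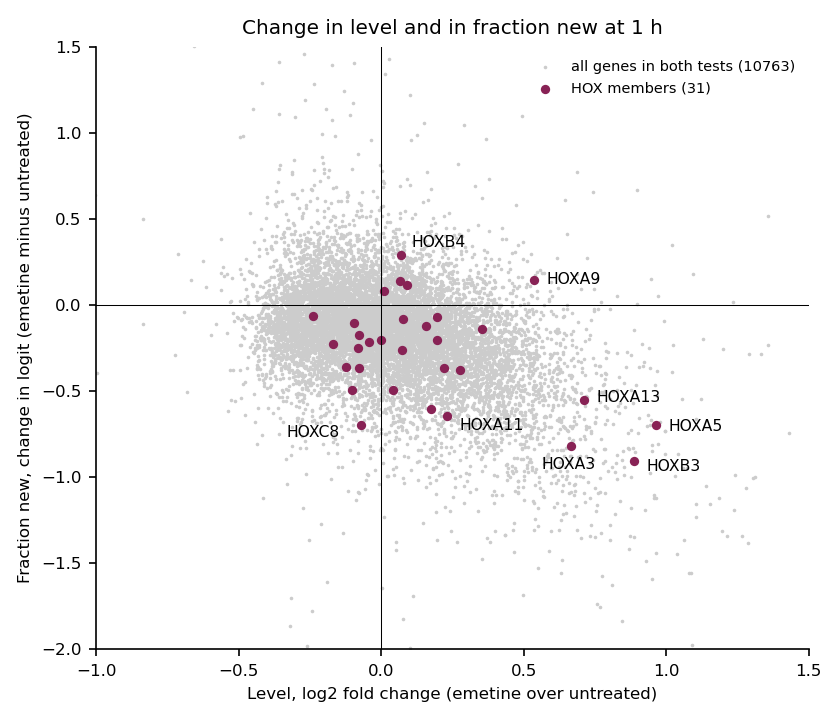
Change in fraction new (logit, emetine minus untreated) against the log2 fold change in level for the 10763 genes in both tests (gray, of which 25 lie outside the axes) and the 31 HOX members among them. HOXA3, HOXA5, HOXA13 and HOXB3 lie to the lower right, with higher level and lower fraction new, and most other members lie near the middle.

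The 3' UTRs of the members were searched for ATTTA, the pentamer at the core of AU-rich elements, which recruit decay factors to many unstable mRNAs. The strand of the mRNA was searched, and copies may overlap by 1 base. Of the 31 members with a fraction new, 27 (87.1%) hold it, as do 74.9% of 9880 genes tested with a 3' UTR, and 6.05% of all stretches of 30 bases in members' 3' UTRs hold it against 5.59% over all genes. The 30 bases around the stretch with most copies are shown for the 3 members whose level rose, for HOXC8, and for HOXD10 and HOXC10 as the longest-lived, with T for U, 5′ to 3′, and ATTTA in capitals.
HOXA3: tgaacagtcagATTTATTTAtatttttttg
HOXB3: ttATTTAtccccctacattatgtATTTAta
HOXA5: gatgttttaacttATTTAtatgaagcaagc
HOXC8: ctgcttctctggtATTTAttttagagggga
HOXD10: cttagcacgtgtaATTTAttattttttcat
HOXC10: tgggagttgtgttATTTAaagatattctgt
They lie at chr7:27107370-27107399, chr17:48549203-48549232 and chr7:27141575-27141604 on the minus strand and at chr12:54011749-54011778, chr2:176119470-176119499 and chr12:53990173-53990202 on the plus strand of GRCh38, all in the 3' UTR. HOXA3 and HOXB3 hold 6 copies each, in HOXA3 with a pair of overlapping ones, while HOXA5 and HOXC8 hold 1 copy, HOXD10 holds 4 and HOXC10 holds 1. Across the 31 members, half-life and copies per kb of 3' UTR had a Spearman's rho of -0.12, as a description.

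HOXA6 had the largest change in level of all members and was not called. This gene, which lies between HOXA5 and HOXA7, had 1.49, 1.382 and 2.25 CPM in untreated cells and 3.47, 2.10 and 14.96 CPM with emetine, a log2 fold change of 1.97 (SE 0.67, adjusted p = 0.164 by edgeR). The highest value came from emetine replicate 3, and without it the change was 0.72 (adjusted p = 0.109 by edgeR). With spike-in scaling HOXA6 was the only member called, at 2.79 on the log2 scale (adjusted p = 0.000540 by edgeR), where the median of all genes was 0.71. In the libraries without s4U it had 29 reads untreated and 77 with emetine, a ratio of 1.97 (95% exact interval 1.27 to 3.13).

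HOXA13 and HOXA9 also had their highest value in emetine replicate 3. HOXA13 had 6.87, 8.35 and 11.8 CPM in untreated cells and 10.2, 12.1 and 22.6 CPM with emetine, a log2 fold change of 0.71 (SE 0.30, adjusted p = 0.221 by edgeR) that was 0.32 without that library. Its ratio without s4U was 0.904 (95% exact interval 0.756 to 1.08). HOXA9 had 16.7, 9.71 and 21.1 CPM with emetine after 13.6, 11.3 and 7.25 CPM in untreated cells. With the reads shared with the readthrough gene added, HOXA9 was at 112, 94.6 and 103 CPM untreated and 143, 134 and 118 CPM with emetine, a log2 fold change of 0.35 (SE 0.10, adjusted p = 0.120 by edgeR). With a length and GC trend removed from the levels, HOXA13 had a log2 fold change of 0.49 (adjusted p = 0.203 by edgeR) and HOXA6 of 2.37 (adjusted p = 0.0751 by edgeR).

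Without emetine replicate 3, 8 of 36 members were called higher in level (22.2%), and 10.1% of all genes were. These were HOXA3, HOXA5 and HOXB3 again with HOXA11, HOXC4, HOXC6, HOXC11 and HOXD13, the latter with log2 fold changes of 0.28, 0.43, 0.37, 0.40 and 0.20. With all libraries HOXD13 stood at 168, 155 and 164 CPM in untreated and 192, 181 and 191 CPM in emetine cells, a log2 fold change of 0.20 (SE 0.08, adjusted p = 0.221 by edgeR).

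The other abundant members were not called in level. HOXB9 was at 165, 165 and 161 CPM in untreated and 165, 159 and 144 CPM in emetine libraries, a log2 fold change of -0.08 (SE 0.09). HOXD10 had a log2 fold change of 0.01 (SE 0.12), HOXC10 of -0.17 (SE 0.10), HOXB6 of 0.08 (SE 0.15) and HOXA10 of 0.20 (SE 0.09). HOXD11, HOXB7, HOXC9 and HOXC13 had 0.09 (SE 0.14), -0.04 (SE 0.13), -0.08 (SE 0.20) and 0.17 (SE 0.12). The lowest estimate of all members was -0.24 (SE 0.14), for HOXB8. As a family, HOX reads made up 0.123% to 0.137% of gene reads with emetine and 0.1004% to 0.108% without, a ratio of means of 1.23, and 1.15 when HOXA3, HOXA5 and HOXB3 were left out. An exact permutation test of the share (two-sided, 3 libraries against 3) gave p = 0.1, the smallest it can give.

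Genes that act with or on the HOX clusters were counted in the same fits, in which 2.64% of all genes were called higher in level and 4.83% lower in fraction new. In lists this short, counts of 0 to 2 calls are near those shares. Of 9 TALE cofactors tested for level and 8 for fraction new, none was called, and PBX2, the most abundant, had 82.6 ± 8.29 CPM untreated and a log2 fold change of -0.14 (SE 0.10). Of 28 Polycomb and Trithorax genes none was called in level, and 2 of 27 were lower in fraction new. These were the Polycomb chromobox genes CBX8, from 66.9% ± 7.62 to 42.1% ± 1.18 (change in logit -1.03, SE 0.24, adjusted p = 0.00360 by limma), and CBX2, from 26.9% ± 6.61 to 15.4% ± 0.958 (-0.69, SE 0.21, adjusted p = 0.0389 by limma; SD, n = 3 in each group). Of the retinoic acid genes, 0 of 14 were called in level and 1 of 10 was lower in fraction new, the receptor RXRB (-0.67, SE 0.21, adjusted p = 0.0482 by limma).

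Noncoding and readthrough genes of the clusters gave no call, with 11 tested for level and 5 for fraction new. Beside 2.64% of all genes called higher in level and 4.83% lower in fraction new, these lists are too short to differ. HOTAIRM1, a long noncoding RNA of the HOXA cluster, had 47.2 ± 4.22 CPM untreated and a log2 fold change of -0.22 (SE 0.19), and HOXA11-AS had 28.5 ± 0.995 CPM and -0.11 (SE 0.12). Of other homeobox genes of the ANTP class, 2 of 38 rose in level (2.64% of all genes) and 4 of 22 were lower in fraction new (4.83% of all genes). DLX2, a forebrain and craniofacial gene, did both, with a log2 fold change of 0.44 (SE 0.09, adjusted p = 0.0419 by edgeR) and a change in logit of -1.01 (SE 0.26, adjusted p = 0.00805 by limma). HLX (-1.53, SE 0.25) and DLX5 (-0.99, SE 0.23) had lower fraction new and were not called in level. The other call in level was MSX2 and the other in fraction new NKX3-2. The median half-life in untreated cells was 1.30 h for these 22 genes, 1.71 h for the 31 HOX members and 5.65 h for all genes.

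The tables of the 2 h experiment list 24 of the 39 HOX symbols among 9982 genes: 9 HOXA, 5 HOXB, 6 HOXC and 4 HOXD. Their lowest mean is 114, and members outside them had at most 23.9 CPM at 1 h, apart from HOXA9 when the reads it shares with the readthrough gene are added (103 CPM). The authors' mean of normalized counts over the 2 h libraries was highest for HOXA5 (2453), HOXD13 (1899.9) and HOXA13 (1803), and HOXA10 (1635) and HOXB9 (1622) followed. The order differed from that at 1 h: among the 24, HOXA13 was the third at 2 h and the 23rd by untreated CPM at 1 h, and HOXA6 was 11th at 2 h, with a mean of 451, and 24th at 1 h. Spearman's rho between both orders was 0.53 over the 24 genes, as a description. The experiments differ in kit (mRNA at 1 h, total RNA at 2 h), time, s4U dose (500 and 250 µM), scaling and the libraries averaged. These differences cannot be told apart here.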

How the data were processed

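TL-seq libraries of HEK-293T cells were grouped by the treatment, time and replicate in their labels. For 1 h, the authors trimmed reads with cutadapt, aligned them to hg38 with hisat-3n and used bam2bakR to deposit counts of reads per gene, T positions and T-to-C conversions, without normalization. For 2 h, the signal values, the mean of normalized counts from DESeq2 with spike-in factors, were used as deposited by the authors; the columns of fold changes and p-values of their own comparisons were not used. Molecular identifiers are not described, so errors from reads cover counting error only.

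Members and gene lists were chosen with earlier results of these data known. Level was tested with edgeR 4.0.16 (TMM, quasi-likelihood test, R 4.3.3) for 13776 genes with over 100 counts in total. Fraction new was the weight of a 2-component binomial mixture (background from the library without s4U, new-read rate per library), fitted in Python 3.11.15 with scipy 1.17.1. Its logit, bounded at 0.001 and 0.999, was tested with limma 3.58.1 (trend, robust) for the 10763 genes whose reads numbered 100 or more in all 6 libraries; labeled and unlabeled log2(CPM + 0.5) likewise. Half-lives are −ln(2) × 1 h / ln(1 − fraction new), which assumes a steady state and label uptake from the start. P-values were adjusted over all genes tested by Benjamini-Hochberg, and members called at an adjusted p under 0.05. bakR was not run. Exon lengths, 3' UTRs and positions came from GENCODE 44 on GRCh38, the build of hg38, to which 17147 of 19222 symbols and all 39 members matched. Both steps were tested on simulated data, which held no shift between libraries in fraction new and no length trend in level.

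Named with full values were members called in any test, the 3 highest per kb in each cluster, the 3 shortest-lived and 3 longest-lived, and the 3 with the largest change in level and in fraction new. From each list the members called (at most 3) were named, or else the 2 highest. Values of 1 member and of some list and marker genes are not reported here. Others (MSX2, NKX3-2, HOXB2, HOXB8, HOXB13, HOXD3, HOXD4, HOXC4, HOXC6, HOXC11, HOXA9, HOXA4, HOXB4 and HOXB5) were named after their values were seen. Alternatives were DESeq2 1.42.0, other scalings and filters, a length and GC trend removed with mgcv 1.9.3, rates, pseudocounts, centering, a replicate block and leaving out each library. Figures were drawn with matplotlib 3.10.9.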

Additional observations from a re-analysis of the deposited data

Results flagged for a closer look

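Reads shared by HOXA9 and the readthrough gene HOXA10-HOXA9 were outside every comparison because they were marked as ambiguous, and they carried conversions above the level of the libraries without s4U. The share of their T positions converted was 3.46%, 4.08% and 4.49% in untreated replicates 1, 2 and 3 and 3.94%, 4.01% and 4.04% in emetine replicates 1, 2 and 3, against 0.0605% (untreated) and 0.0508% (emetine) without s4U. Their fraction new was 36.4%, 46.8% and 53.0% untreated and 42.6%, 43.9% and 46.7% with emetine. With these reads added to HOXA9, the change in logit was -0.02 (SE 0.23, adjusted p = 0.988 by limma).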

How the results depend on the processing

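The number of HOX members called in level was 3 with DESeq2, RLE scaling, no count minimum and the shared HOXA9 and HOXA10 reads added, an alternative chosen after seeing the data. It was 1 with spike-in scaling (HOXA6), 5 with the length and GC trend removed, and 0 to 8 with 1 library left out. Calls over all genes moved too: 60 with spike-in scaling, 1391 with the trend removed, and 4 to 1892 with 1 library left out. In fraction new the count was 1 in the analysis as described, 0 with a minimum of 50 reads, 3 with centering and 0 to 11 with 1 library left out. All genes gave 543, 312, 874 and 108 to 2565 calls in the same settings. At 500 reads 13 members were tested and 0 called, but HOXB3 was not among them. The count was 0 for labeled reads under each other setting and 0 to 3 with 1 library left out (the 3, HOXB9, HOXB13 and HOXC13, were lower without untreated replicate 1). For unlabeled reads it was 5 with each pseudocount and with 50 reads, and 1 to 9 with 1 library left out. The causes were not tested, apart from fewer libraries or genes where these define the setting. Among results for single named genes under an alternative, 671 stayed on the same side of the threshold, 35 lost and 21 gained a call, and none reversed. Over all genes, 369 were called in level, 60 to 1391 under other settings and 4 to 1892 with 1 library left out. In fraction new these were 543, 241 to 874 and 108 to 2565, for labeled reads 90, 82 to 96 and 16 to 1752, and for unlabeled reads 844, 297 to 966 and 287 to 1826.

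The replicate numbers did not pair the libraries: the deviations of same-numbered libraries correlated at 0.091, 0.038 and -0.091 in level and at 0.056, 0.0025 and 0.022 in fraction new, and not every library correlated best with its own number. With the replicate block, 1 member was called in level (HOXA5, while HOXA3 and HOXB3 were lost at adjusted p = 0.0798 and 0.0604 by edgeR), 3 in fraction new (HOXA3, HOXA5 and HOXB3), 0 in labeled and 1 in unlabeled reads (HOXA5, while HOXA3, HOXB3, HOXA11 and HOXA13 were lost). Calls over all genes moved in the same directions. They went from 369 to 78 of 13776 genes in level and from 543 to 687 of 10763 in fraction new.

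The median half-life of the members in untreated cells, 1.71 h, was 1.499 to 1.86 h with 1 library left out and 1.70 to 1.72 h under the other settings. The median level per kb was 6.77 CPM, 7.33 CPM with the longest coding transcript and 7.23 CPM in the untreated library without s4U, against an SD of 0.308 between libraries. Under 100 reads in a library, fraction new was not compared, which left out 5 members.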
